A study of Mus musculus with 6 samples.

Results

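The p200 genes, also called IFI-200 or PYHIN genes, form a cluster on mouse chromosome 1. The 10 described here (Ifi202b, Ifi203, Ifi204, Ifi205, Ifi207, Ifi209, Ifi211, Ifi213, Mndal and Aim2) were chosen by symbol and were 10 of the 26264 gene symbols listed in each of 6 bulk RNA-sequencing libraries. In brown preadipocytes pretreated with fibroblast growth factor 8 (FGF8), the summed level of these genes was 2.33-fold lower than in untreated cells at the end of the pretreatment, 2.61-fold lower on day 3 and 4.35-fold lower on day 9 of the following differentiation. Ifi205 showed the largest difference on day 9 among the 10 genes, at 17.7-fold, and Mndal the smallest among the 7 abundant genes of that day, at 3.27-fold.

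Proteins of the p200 family carry a HIN domain, which binds DNA, and most also carry a pyrin domain, through which they assemble with other proteins. Interferons induce many of the genes through a DNA element called the interferon-stimulated response element (ISRE), which is read by a complex of STAT and IRF factors. The family is known mostly from immune cells, where AIM2 senses DNA in the cytosol and starts the inflammasome, whereas other members restrain growth or regulate transcription in the nucleus.

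The sample titles name no mouse strain. According to the study's methods, the cells came from wild-type Bl6N mice, from the stromal vascular fraction of interscapular brown fat. Whether all 6 libraries shared this source was not tested. The brown preadipocytes were immortalized with the SV40 large T antigen, which by these methods all 6 groups carried. They received 5.5 nM FGF8 for 48 h or were left untreated (vehicle-treated in the study's methods), and were harvested directly (day 0), or on day 3 or day 9 after the pretreatment. Day 9 is named by the time since the pretreatment and stands for the D7 libraries of the labels, which spent 7 days on differentiation medium. The growth protocol given with the samples speaks of primary white preadipocytes, whereas titles and cell type speak of immortalized brown ones. There was 1 library for each of the 6 conditions, so no single day has a replicate check: intervals given with a fold change are 95% exact (Clopper-Pearson) intervals and cover counting error only. The libraries held 16403254 to 38551551 counts. Counts were divided by the median-of-ratios size factors of DESeq2, and log2 fold changes compare log2(normalized count + 1) of 2 libraries.

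The day 0 pair stood apart from the later libraries. Xist had 2530 counts in untreated and 5837 in FGF8-treated cells at day 0, against 7 to 26 counts in the 4 later libraries, while the Y-linked Ddx3y, Uty, Kdm5d and Eif2s3y had counts in all 6. Besides Ifi202b, Gbp2b (4837 and 935 counts at day 0, at most 1 later) and Ptchd1 (787 and 1164, at most 2 later) had at least 500 normalized counts in both day 0 libraries and at most 3 counts in each later one. A difference of day and a difference of cell source therefore cannot be told apart in any comparison of day 0 with a later day, and the edgeR calls that combine days are given below with and without day 0. In bulk RNA, fewer cells of a type and less RNA per cell cannot be told apart either. Markers moved with the treatment. Of 11 preadipocyte and stromal markers, 9 had enough counts on day 9. All 9 were at least 2-fold lower after FGF8 (median log2 fold change -1.84), against 8.74% of all genes. At day 0 these markers were mixed, with 6 of 11 at least 2-fold lower (against 10.8% of all genes), 1 at least 2-fold higher and a median of -1.14. The 9 adipocyte markers had medians of 0.69 on day 3 and 0.30 on day 9, but -0.59 at day 0, when 5 had enough counts and 4 of these were lower. The 10 brown adipocyte markers, of which 7, 8 and 9 had enough counts on days 0, 3 and 9, had medians of 0.92, 1.36 and 0.37. At day 0 they were mixed, from -2.32 to 10.4, with 3 of the 7 lower and 2 of these at least 2-fold lower. On day 3 none of the 8 was lower, and on day 9, 3 of the 9 were. The part of these shifts in the p200 levels was not tested.

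The 10 genes span 681.012 kb, from Aim2 (chr1:173178445-173293930, plus strand, GRCm39) to Ifi205 (chr1:173839549-173859456, minus strand). Between them lie, in this order, Ifi213 (chr1:173393846-173426881), Ifi209 (chr1:173458380-173475494), Ifi207 (chr1:173550990-173569383), Ifi204 (chr1:173574859-173594610), Mndal (chr1:173676539-173708447), Ifi211 (chr1:173723911-173740612), Ifi203 (chr1:173747971-173770436) and Ifi202b (chr1:173790134-173810414). All are annotated as protein-coding, and all but Aim2 and Ifi209 lie on the minus strand. Ifi206, Ifi214 and Ifi208 lie in the same cluster and are listed in the files as well, whereas Pyhin1, Pydc3, Pydc4, Ifi203-ps, Ifi202a and Ifi202c were not found among the symbols.

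Promoter sequences, from 250 bases before to 50 bases after the start site in RefSeq, were at hand for 9 of the 10 members (the table's build is GRCm38.p6, and each sequence was located by an exact, single match in GRCm39). The ISRE core, searched as GAAANNGAAA on both strands, was present in 6 of these 9 members (7 of 11 promoters), and in 3.44% of all 32851 promoters of the table. It lay 35 to 41 bases upstream of the start site in Ifi203, Mndal, Ifi211 and Ifi207, 73 bases upstream in Ifi213 and 134 bases upstream in Ifi205, and read GAAATCGAAA in Ifi203, Mndal, Ifi207 and Ifi213 and GAAATTGAAA in Ifi211 and Ifi205. On the other strand, Ifi205 had a further match 23 bases downstream of the start site (TTTCACTTTC), and another promoter of Mndal had one 54 bases upstream of its own start site (TTTCTCTTTC). The core was also present in Ifi206, Ifi208 and Ifi214, and absent from the windows of Ifi202b, Ifi209 and Aim2. It was absent as well from another promoter of Ifi203 (chr1:173770189-173770488), which is not shown. The following promoters are shown because these genes carry most of the family's counts or the largest FGF8 differences; capitals mark the ISRE core on either strand. A match describes these letters and is not evidence of a bound site.
Ifi203 (chr1:173770009-173770308, minus strand): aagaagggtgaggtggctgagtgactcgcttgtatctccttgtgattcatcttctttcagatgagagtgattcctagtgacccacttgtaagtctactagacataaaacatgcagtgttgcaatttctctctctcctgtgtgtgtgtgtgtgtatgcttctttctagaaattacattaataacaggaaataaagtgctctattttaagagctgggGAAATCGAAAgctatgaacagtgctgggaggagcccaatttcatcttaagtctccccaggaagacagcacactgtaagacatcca
Mndal (chr1:173707704-173708003, minus strand): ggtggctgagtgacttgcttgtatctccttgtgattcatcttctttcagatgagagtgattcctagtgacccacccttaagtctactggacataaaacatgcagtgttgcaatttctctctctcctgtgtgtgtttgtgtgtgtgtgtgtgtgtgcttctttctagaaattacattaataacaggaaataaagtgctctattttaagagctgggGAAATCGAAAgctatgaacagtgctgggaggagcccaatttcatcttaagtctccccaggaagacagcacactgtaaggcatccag
Ifi207 (chr1:173569326-173569625, minus strand): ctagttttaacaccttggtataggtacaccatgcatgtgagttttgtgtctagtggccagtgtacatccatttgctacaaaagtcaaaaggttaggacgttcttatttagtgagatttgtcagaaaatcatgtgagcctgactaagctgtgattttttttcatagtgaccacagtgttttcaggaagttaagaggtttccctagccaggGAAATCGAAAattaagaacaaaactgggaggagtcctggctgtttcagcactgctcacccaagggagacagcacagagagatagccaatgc
Ifi211 (chr1:173740563-173740862, minus strand): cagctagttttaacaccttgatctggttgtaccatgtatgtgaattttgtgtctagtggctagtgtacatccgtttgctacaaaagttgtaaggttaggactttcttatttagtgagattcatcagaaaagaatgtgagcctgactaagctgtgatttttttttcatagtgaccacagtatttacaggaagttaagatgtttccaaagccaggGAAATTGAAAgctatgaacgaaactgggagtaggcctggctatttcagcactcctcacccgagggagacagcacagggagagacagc
Ifi205 (chr1:173859272-173859571, minus strand): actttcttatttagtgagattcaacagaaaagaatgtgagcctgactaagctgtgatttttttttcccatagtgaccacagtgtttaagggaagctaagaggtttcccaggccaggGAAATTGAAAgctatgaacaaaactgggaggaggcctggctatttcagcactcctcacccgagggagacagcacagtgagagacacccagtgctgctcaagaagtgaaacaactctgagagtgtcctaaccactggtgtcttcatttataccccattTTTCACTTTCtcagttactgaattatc
Ifi213 (chr1:173426789-173427088, minus strand): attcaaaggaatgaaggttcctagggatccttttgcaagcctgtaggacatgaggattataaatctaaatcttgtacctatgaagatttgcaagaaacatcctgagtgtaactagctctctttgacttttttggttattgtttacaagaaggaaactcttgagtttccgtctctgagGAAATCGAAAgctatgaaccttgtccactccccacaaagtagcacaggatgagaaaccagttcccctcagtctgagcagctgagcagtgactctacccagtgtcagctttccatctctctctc
Ifi202b, shown as the abundant member without the core (chr1:173810361-173810660, minus strand): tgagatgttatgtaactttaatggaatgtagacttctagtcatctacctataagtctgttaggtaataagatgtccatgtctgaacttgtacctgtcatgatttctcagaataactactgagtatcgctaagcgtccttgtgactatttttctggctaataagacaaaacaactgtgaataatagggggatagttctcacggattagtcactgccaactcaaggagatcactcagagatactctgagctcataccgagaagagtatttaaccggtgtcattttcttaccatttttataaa

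TATAAA was found in 4 of the 9 members and in 13.6% of all promoters. None of the ISRE cores overlapped a TATAAA match, and the TATAAA matches of Ifi202b on the 2 strands overlapped each other.

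Because the genes arose by duplication, reads of 1 member can match another. Of all exonic windows of 150 bases, the read length, 40.6% of Ifi211 also occur elsewhere in the genome or in transcripts of another gene, most often in Ifi205 (26.1%). The share was 15.0% for Ifi204, all of it with Ifi211, 12.0% for Ifi205, also with Ifi211, and 9.02% for Ifi209, with Ifi214. It was 2.43% for Ifi203, 2.19% for Mndal and 0.308% for Ifi213, and no window was shared for Ifi202b, Ifi207 and Aim2. At 50 bases the median share over the 10 members was 23.5%, against 2.31% at 150 bases. How reads with several matches were counted is not given in the sources used here, nor is the strand setting, so the split of counts among Ifi211, Ifi205 and Ifi204 is uncertain, and 2.88% of the exonic bases of Mndal overlap Gm38050. The summed count of the family does not depend on how reads are divided among its members. It does depend on whether reads with several matches were counted, and on sharing with genes outside the 10, such as Ifi214.

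**Figure D1:**
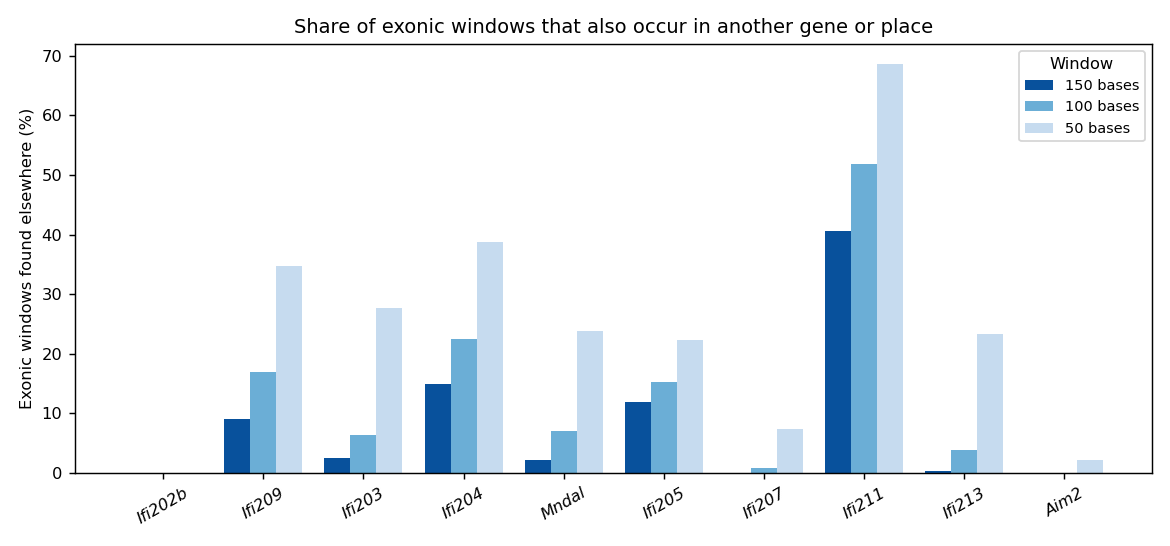
Percent of distinct exonic windows of each member that also occur in another gene or place of GRCm39, for windows of 150, 100 and 50 bases. Ifi211 stands highest at 40.6% of the 150-base windows, while Ifi202b, Ifi207 and Aim2 have none.

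The summed normalized count of the 10 genes was 48054 in untreated and 20637 in FGF8-treated cells at day 0, 29406 and 11269 on day 3, and 12103 and 2779 on day 9. The FGF8 library was the lower of the pair on each day, and each treatment had its lowest sum on day 9. As a share of all counts, the family took 0.199% of the untreated library at day 0, 0.119% on day 3 and 0.0442% on day 9, and after FGF8 0.0891%, 0.0422% and 0.00991%. The log2 fold changes of the sum were -1.22 at day 0 (95% counting interval -1.25 to -1.19), -1.38 on day 3 (-1.41 to -1.35) and -2.12 on day 9 (-2.18 to -2.07). Without Ifi202b, which was left out after its values were seen, the day 0 value was -1.29 and the untreated sum fell by 0.15 on the log2 scale from day 0 to day 3 in place of 0.71.

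**Figure D2:**
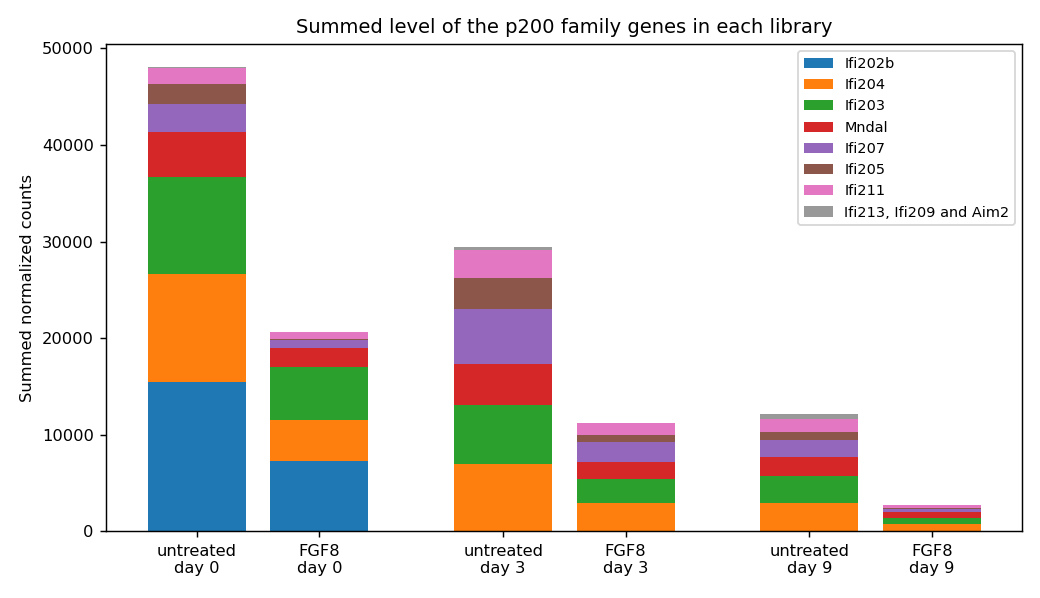
Summed normalized counts of the 10 genes in each of the 6 libraries, stacked by gene. The FGF8 bar is the shorter of the pair on each day, and Ifi202b (blue) contributes 32.1% of the untreated and 35.4% of the FGF8 sum at day 0 and almost nothing later.

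Aim2, the DNA sensor of the inflammasome, was near the limit of detection in these cells. It had 1, 13 and 34 counts in the untreated libraries of days 0, 3 and 9, and 2, 16 and 5 counts after FGF8. The day 9 pair differed, with a log2 fold change of -2.31 (-4.28 to -1.21), and the day 3 interval included 0 (-0.52, -1.71 to 0.62). At day 0 both libraries were under the floor of 3 counts and no fold is given. At this level a single count matters, and the gene averaged under 20 normalized counts in each pair.

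Ifi202b encodes p202, which binds DNA through its HIN domains, lacks a pyrin domain and is known to restrain AIM2; its level is also known to differ between inbred mouse strains. It was the most abundant member at day 0, with 10511 counts (15439 normalized) in untreated and 5711 (7311 normalized) in FGF8-treated cells, a 2.11-fold difference (2.04 to 2.18). In the 4 later libraries it had 0, 1, 0 and 0 counts, so no FGF8 difference could be measured there. The counts of Ifi202b thus fall together with those of Gbp2b and Ptchd1 in the day 0 pair, and no other member had this pattern.

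Ifi204 encodes p204, a DNA-binding protein related to human IFI16 that signals through STING and also acts in cell differentiation. Its normalized counts were 11232, 7004 and 2982 in untreated cells on days 0, 3 and 9, and 4234, 2961 and 725.1 after FGF8. The FGF8 value was lower in each pair, and the level fell with the days under both treatments. The log2 fold changes were -1.41 (-1.47 to -1.35), -1.24 (-1.30 to -1.18) and -2.04 (-2.15 to -1.94).

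Ifi203 and Mndal encode nuclear members of the family; Mndal is named after human MNDA. Ifi203 had 10051, 6070 and 2790 normalized counts in untreated cells on days 0, 3 and 9, and 5438, 2472 and 639.0 after FGF8. Mndal had 4631, 4290 and 1962 in untreated and 1996, 1729 and 599.1 in FGF8-treated cells. Both genes were lower after FGF8 on each day and lowest on day 9, and Mndal changed little from day 0 to day 3 (-0.11 in untreated and -0.21 in FGF8-treated cells on the log2 scale). The FGF8 differences of Ifi203 widened from -0.89 (-0.94 to -0.83) at day 0 to -1.30 (-1.36 to -1.23) and -2.12 (-2.24 to -2.02). Those of Mndal were -1.21 (-1.30 to -1.13), -1.31 (-1.39 to -1.24) and -1.71 (-1.83 to -1.59).

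Ifi205, Ifi207 and Ifi211 had another time course, with their highest value on day 3 under either treatment. Ifi205, which encodes the interferon-inducible nuclear protein p205, had 2008, 3270 and 890.1 normalized counts in untreated cells and 151.1, 692.8 and 50.40 after FGF8. The log2 fold changes were -3.72 (-4.02 to -3.46) at day 0, -2.24 (-2.35 to -2.13) on day 3 and -4.12 (-4.53 to -3.77) on day 9, which is a 17.7-fold difference. Ifi205 held 4.18% of the family's counts in untreated and 0.732% in FGF8-treated cells at day 0, and 7.35% and 1.81% on day 9. Its fold change was the lowest of the members that averaged 20 or more normalized counts in each of the 3 pairs, and the FGF8 value of day 3 stayed below each untreated value.

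Ifi207, a member with both a pyrin and a HIN domain, had 2925, 5620 and 1684 normalized counts in untreated and 834.7, 2130 and 378.0 in FGF8-treated cells. Ifi211 had 1691, 2852 and 1341 in untreated and 633.7, 1210 and 346.3 in FGF8-treated cells. Each FGF8 value lay below the untreated value of the same day. The log2 fold changes were -1.81 (-1.94 to -1.68), -1.40 (-1.47 to -1.33) and -2.15 (-2.30 to -2.01) for Ifi207. They were -1.41 (-1.57 to -1.26), -1.24 (-1.33 to -1.15) and -1.95 (-2.11 to -1.80) for Ifi211. Ifi207 shares no 150-base window with another gene, unlike Ifi211 and Ifi205. Of its 100-base windows 0.788% occur elsewhere, and of its 50-base windows 7.44%. Its values are thus less exposed to the split of reads than those of Ifi211 and Ifi205, but not shown to be free of it.

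The level of Ifi213 in untreated cells rose from each day to the next. It had 15, 201 and 601 counts in untreated cells (22.03, 255.8 and 426.6 normalized) and 3, 84 and 46 counts after FGF8 (3.841, 58.96 and 37.40 normalized). The untreated level rose from day 3 to day 9 by a log2 fold change of 0.74 (0.51 to 0.98), and the level after FGF8 fell by 0.64 (-1.21 to -0.12); this contrast between treatments was not tested. The FGF8 differences were -2.25 (-4.95 to -0.70) at day 0, -2.10 (-2.50 to -1.74) on day 3 and -3.48 (-3.98 to -3.08) on day 9.

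Ifi209 was rare and fell with the days. It had 36, 22 and 5 counts in untreated and 25, 5 and 0 counts in FGF8-treated cells. The day 0 interval included 0 (-0.71, -1.52 to 0.05), and on day 3 the gene was 7.98-fold lower after FGF8 (2.95 to 27.0). On day 9 the FGF8 library was at 0, which against the floor of 3 counts is at least 1.46-fold lower, but the interval of these few counts included no difference.

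**Figure D3:**
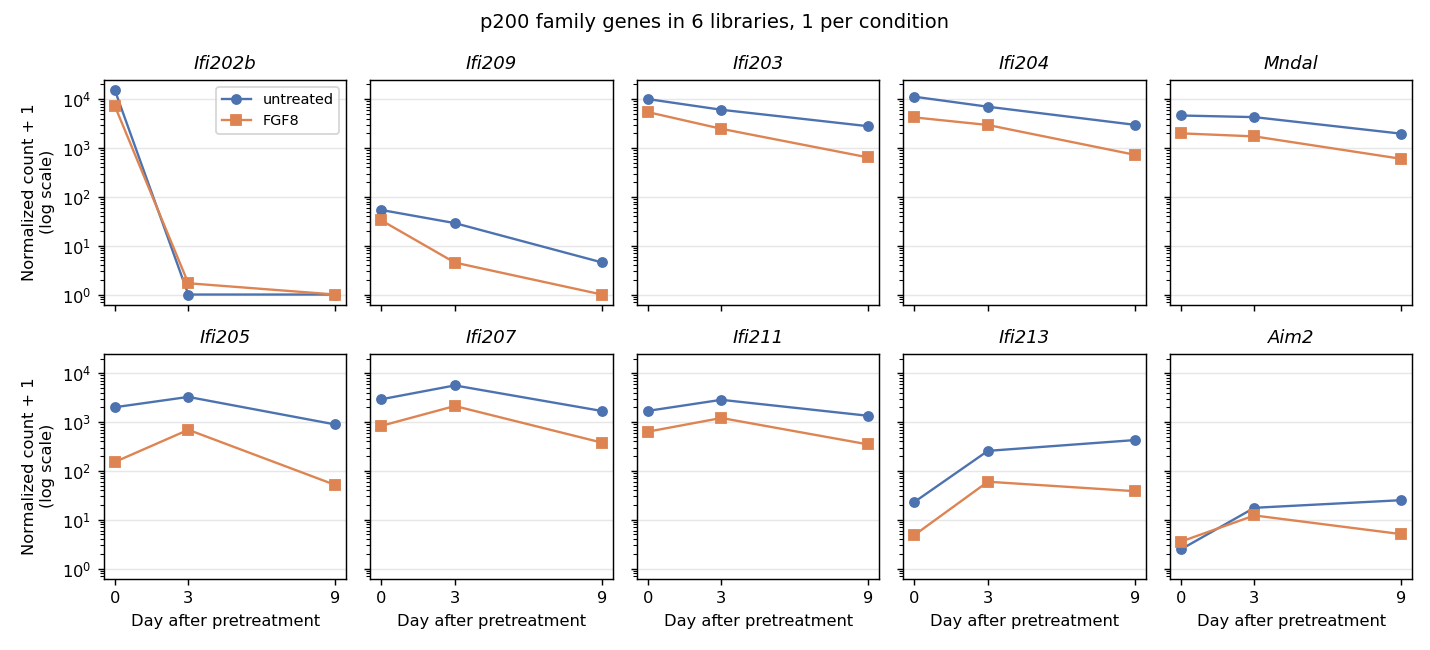
Normalized count + 1 (log axis) of each gene by day after pretreatment in untreated (circles) and FGF8-treated cells (squares), 1 library per point and without error bars because there are no replicates. The FGF8 point lies below the untreated one in each pair except Aim2 at day 0 and Ifi202b on days 3 and 9, where at most 2 counts were present.

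Compared per kb of exon, Ifi202b stood first at day 0 in untreated cells with 8573 normalized counts per kb, followed by Ifi204 (3067), Ifi203 (1324), Mndal (1130), Ifi211 (900.2), Ifi207 (800.4) and Ifi205 (470.0). Ifi209 (14.5), Ifi213 (2.39) and Aim2 (0.223) were far lower. On day 9 in untreated cells the order was Ifi204 (814.3), Ifi211 (714.0), Mndal (478.5), Ifi207 (460.8), Ifi203 (367.5), Ifi205 (208.4) and Ifi213 (46.3). The exact 95% Poisson intervals of neighbours in this order overlapped for Mndal and Ifi207 on day 9, and, also in untreated cells, for Ifi207 and Ifi211 as well as Ifi203 and Ifi205 on day 3. After FGF8, Ifi204 (198.0) and Ifi211 (184.4) led on day 9 with overlapping intervals. The order rests on 1 library per condition and on the split of reads described above.

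Set beside all genes that averaged 20 or more normalized counts over the pair, 6 of the 8 members that passed were at least 2-fold lower after FGF8 at day 0, where 10.8% of 12657 genes were. On day 3 all 7 members that passed were at least 2-fold lower, against 12.1% of 12892 genes, and on day 9 all 7 that passed, against 8.74% of 13070 genes. None was 2-fold higher on any day. The members that did not pass were Ifi213 and Aim2 at day 0, and Ifi202b, Ifi209 and Aim2 on days 3 and 9. The median log2 fold change of those that passed was -1.31, -1.31 and -2.12 on days 0, 3 and 9, beside 0.05, 0.08 and 0.08 over all genes. On day 9 Ifi205 ranked 17th from the lowest of 13070 genes and Ifi213 52nd, whereas Mndal ranked 505th. On day 3 the 7 members ranked between 176th (Ifi205) and 1121st (Ifi211) of 12892, and at day 0 Ifi205 ranked 161st and Ifi209 1926th of 12657.

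**Figure D4:**
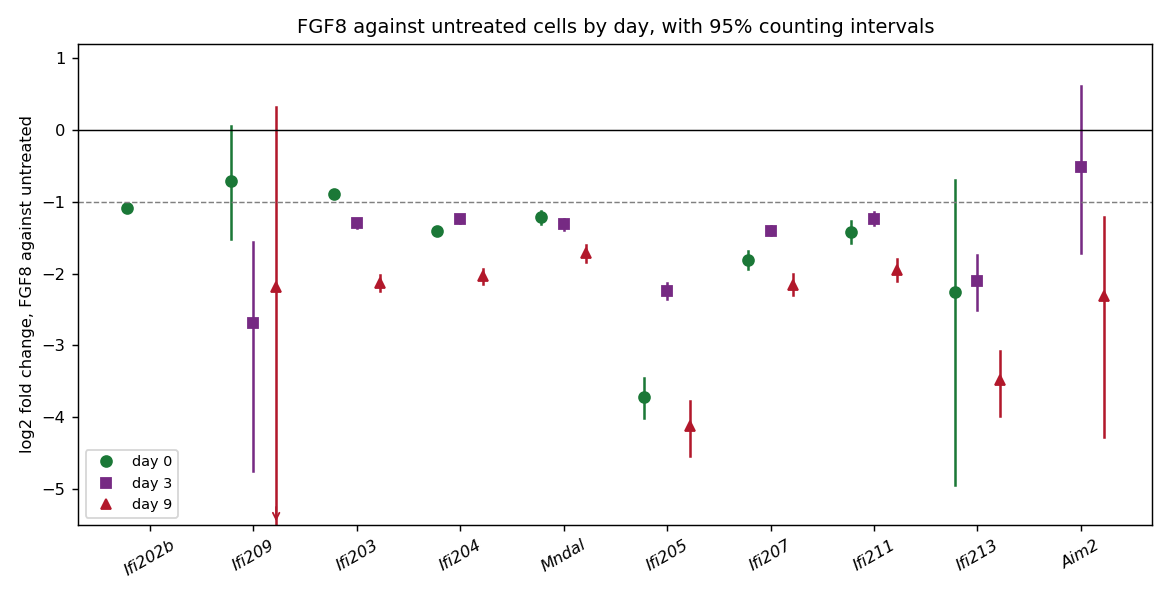
Log2 fold change of FGF8 against untreated cells for each gene at day 0 (circles), day 3 (squares) and day 9 (triangles), with 95% counting intervals as bars and the 2-fold limit dashed. The arrow marks an interval that runs to minus infinity; pairs with at most 3 counts in both libraries are left out. The day 9 triangle is below the day 3 square for each gene drawn on both days except Ifi209.

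The 7 members measured on both later days all had a lower fold change on day 9 than on day 3, with a median shift of -0.80. Among all 12619 genes measured on both days, 52.7% had a lower fold change on day 9, and among the 1437 that were at least 2-fold lower on day 3, 34.2% did. These 1437 genes were selected by their day 3 value, which by itself favours a smaller difference on day 9. The members were chosen by symbol, so the 34.2% is not a like comparison. The day 3 and day 9 counting intervals did not overlap for Ifi203, Ifi204, Ifi205, Ifi207, Ifi211, Ifi213 and Mndal. These intervals cover counting error only and are narrow for abundant genes. The share of all genes without such overlap was not computed, so the non-overlap is not a result about the members. From day 0 to day 3 the direction was mixed, with 2 of 6 members (Ifi203 and Mndal) lower on day 3. Of all 11941 genes measured on both of these days, 50.7% were. Of the 1199 at least 2-fold lower at day 0, a group selected in the same way as above, 15.6% were.

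To ask which members differed after FGF8 on the 3 days together, edgeR's quasi-likelihood test was fitted to all genes with day as a block, so that the days stand in for replicates with 2 residual degrees of freedom. With Benjamini-Hochberg adjustment it called 5 of the 10 members lower and none higher, against 1.25% of 14569 genes called lower. These were Mndal (log2 fold change -1.43 ± 0.145 SE, adjusted p = 0.0432), Ifi207 (-1.81 ± 0.174, 0.0429), Ifi211 (-1.55 ± 0.175, 0.0451), Ifi204 (-1.58 ± 0.193, 0.0464) and Ifi205 (-3.36 ± 0.412, 0.0467). Each was lower in 3 of 3 pairs. Their adjusted p lay close to the threshold, and over the 7 alternatives it ranged from 2.05e-14 to 0.9998 for Ifi205 and from 8.56e-10 to 0.9998 for Mndal. Ifi213 (-2.77 ± 0.396, adjusted p = 0.0602) and Ifi203 (-1.45 ± 0.261, adjusted p = 0.0810) were lower in 3 of 3 pairs and missed the threshold in edgeR's test, as did Ifi202b (0.200), Ifi209 (0.211) and Aim2 (0.331).

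The outcome depended on the days that entered. Without day 0, edgeR's test called 7 of the 8 members tested lower (Ifi203, Ifi204, Ifi205, Ifi207, Ifi211, Ifi213 and Mndal), against 11.6% of 14367 genes, with adjusted p from 0.00108 (Mndal) to 0.00236 (Ifi213). The log2 fold changes of these 7 ranged from -3.07 ± 0.371 (SE) for Ifi205 to -1.54 ± 0.154 for Mndal. This fit holds only the pairs of days 3 and 9, with fewer residual degrees of freedom than the 2 of the main fit. Its smaller adjusted p is therefore not firmer evidence than that of the main fit. The same limit applies to each call without day 0 given below. Without day 3 or without day 9 edgeR's test called 0 members and 0 genes, with 8 and 7 members of 9 tested at an unadjusted p under 0.05. Of all genes, 1510 of 14256 and 1868 of 13743 had such a p. Without the block for day the test also called 0 members and 0 genes. There, 3 of 9 members tested had an unadjusted p under 0.05, against 575 of 13868 genes. With no filter on low counts, and by DESeq2's Wald test, 7 members were called lower, Ifi203 and Ifi213 among them. Of 19835 genes, 406 and 1220 were called lower in these 2 settings.

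Day effects shared by both treatments were taken from the same edgeR fit. From day 0 to day 3, it called 1 member lower (Ifi202b), against 19.8% of all genes, and 4 higher (Ifi205, Ifi207, Ifi211 and Ifi213), against 26.2%. Ifi213 had the largest increase, with a log2 fold change of 3.85 ± 0.525 SE (edgeR adjusted p = 0.00693, 1.59e-07 to 0.117 over 4 alternatives). From day 0 to day 9, 6 members were lower (Ifi202b, Ifi203, Ifi204, Ifi207, Ifi209 and Mndal), against 24.8%, and 1 higher (Ifi213), against 29.2%. Ifi203 fell by 2.41 ± 0.329 and Ifi204 by 2.17 ± 0.240 on the log2 scale between these days. Both sets of calls rest on the day 0 pair and its possible difference in cell source. From day 3 to day 9, which does not, edgeR called no member, with 0.00686% of all genes called lower. An unadjusted p under 0.05 was seen for 7 members and for 3110 of 14569 genes. DESeq2's Wald test called 6 members lower (Ifi203, Ifi204, Ifi205, Ifi207, Ifi211 and Mndal), against 468 of 19835 genes. The fitted log2 changes of these 6 ranged from -2.85 ± 0.493 SE (Ifi205) to -1.34 ± 0.178 (Mndal).

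The other p200 symbols with counts, Ifi206 and Ifi208, were lower after FGF8 as well. Ifi206 had 26, 225 and 189 counts in untreated and 4, 129 and 18 in FGF8-treated cells. Ifi208 had 55, 197 and 351 counts in untreated and 4, 66 and 42 in FGF8-treated cells, and edgeR called it lower. Without day 0 the test called both lower, against 11.6% of all genes. Both rose from day 0 to day 3 in untreated cells, by 2.87 and 1.62 on the log2 scale. Ifi214 had 7 and 2 counts at day 0 and 0 in the 4 later libraries.

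Cadm3, Fmn2 and Gm35742, which are annotated within 500 kb of the cluster and are not p200 genes, had at most 5 counts in any library, too few to compare.

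The AIM2 pathway was sparse. Of 11 genes of the inflammasome and its products, 7 were tested in edgeR and 1 was called lower, against 1.25% of all genes. It was Gsdmd, the pore-forming protein of pyroptosis (log2 fold changes -1.19, -1.69 and -1.54 on days 0, 3 and 9). Pycard, the adaptor ASC, had 37, 6 and 21 counts in untreated and 20, 14 and 8 in FGF8-treated cells, and Il1b had at most 2 counts in any library. Casp4, the inflammatory caspase, had log2 fold changes of -1.07, -1.58 and -1.32 without passing the test, and Casp8 had -0.16, 0.47 and 0.06. Il18 had -0.28, -1.12 and -0.64, and Ninj1, which ruptures the membrane of dying cells, -0.36, 0.48 and 0.49. Without day 0, edgeR called 2 of the 7 lower, Gsdmd and Casp4, against 11.6% of all genes.

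Among 14 genes of cytosolic DNA sensing, 13 were tested and 1 was called lower, against 1.25% of all genes. It was Zbp1, a sensor of Z-form nucleic acids (-2.81, -1.58 and -2.96). Sting1, the adaptor downstream of cGAS and p204, did not pass the test over the 3 days, with log2 fold changes of -0.06, -1.51 and -1.95. Samhd1, which degrades nucleotides, had -1.80, -0.94 and -0.94, Ikbke -0.63, -1.38 and -1.06, and Enpp1, which cleaves cGAMP, 0.36, -1.27 and -0.71. The median of the list was -0.06, -0.08 and -0.08 on the 3 days, near that of all genes. Without day 0, edgeR called 5 of the 13 lower (Sting1, Ikbke, Zbp1, Samhd1 and Enpp1), against 11.6% of all genes called lower. It called 1 higher, Banf1, against 569 of 14367 genes called higher.

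Interferon genes themselves had few counts. Ifnb1 had 28, 2 and 10 counts in untreated and 0, 1 and 2 in FGF8-treated cells, and each of the other 7 ligand genes had at most 3 counts in any library. Of 18 receptors and signal transducers, all tested in edgeR, 1 was called lower, against 1.25% of all genes. It was Ifnar2, a chain of the type I interferon receptor (-0.83, -1.10 and -1.08). Irf7 had -2.71, -1.30 and -2.01, Usp18 -1.51, -0.44 and -1.01, Socs1 -1.69, -0.74 and -1.29, and Socs3 0.26, -1.14 and -1.60. Without day 0, edgeR called 11 of the 18 lower, among them Ifnar2, Irf7, Usp18, Socs1 and Socs3, and none higher. Of all genes, 11.6% were called lower.

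The 24 classical interferon-stimulated genes had another course over the days than the p200 genes. At day 0 all 24 were at least 2-fold lower (median -2.65), against 10.8% of all genes. On day 3, 12 of 24 were (median -0.94), against 12.1%. On day 9, 18 of 23 with enough counts were (median -1.34), against 8.74%. The p200 medians of -1.31, -1.31 and -2.12 were thus closer to 0 than theirs at day 0 and farther from 0 on both later days; this difference was not tested. In edgeR's test over the 3 days 1 of the 24 was called lower, Ifit2, against 1.25% of all genes. Without day 0, it called 21 of the 24 lower and none higher, against 11.6% of all genes called lower. Oas3, an activator of RNase L, had -3.66, -1.48 and -3.56 and Mx1, an antiviral GTPase, -4.90, -1.17 and -2.38. Ifit3, Oas1a and Oas2 also had their largest differences at day 0 (-4.08, -3.32 and -4.65).

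**Figure D5:**
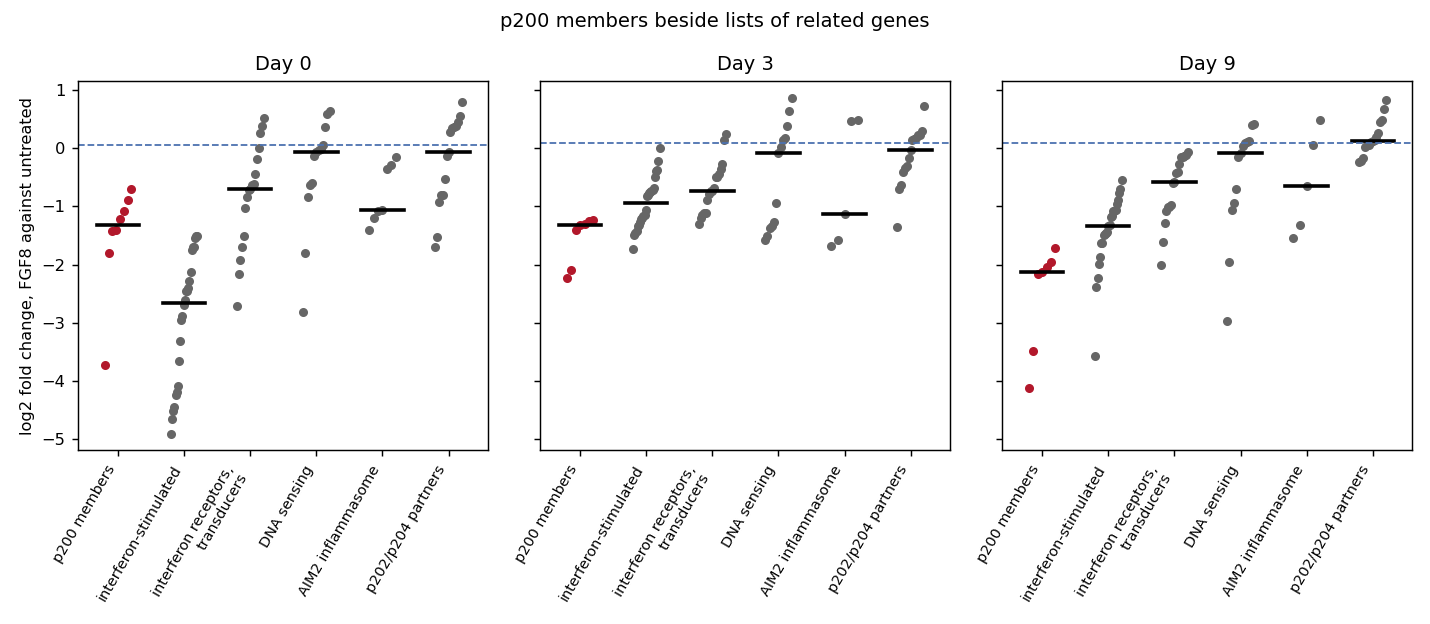
Log2 fold changes of FGF8 against untreated cells for the p200 members (red) and for 5 lists of related genes (grey) on each day, 1 point per gene averaging 20 or more normalized counts over the pair. Black bars are medians and the dashed line is the median of all genes; the p200 median is -1.31, -1.31 and -2.12, and that of the interferon-stimulated genes is -2.65, -0.94 and -1.34.

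Of 15 genes listed as reported partners of p202 and p204, 2, 1 and 0 were at least 2-fold lower on days 0, 3 and 9, against 10.8%, 12.1% and 8.74% of all genes (medians -0.06, -0.03 and 0.12). In edgeR 0 of the 15 were called lower, against 1.25% of all genes. Without day 0 Rb1 alone was called higher, against 569 of 14367 genes called higher. The difference from the p200 genes was not tested. Rb1, the retinoblastoma protein bound by several members, had 0.28, 0.72 and 0.48. Rbl1 had 0.55, 0.22 and 0.26, Fos -0.54, -0.17 and 0.44, Id1, an inhibitor of differentiation factors, -0.80, 0.14 and 0.82, and Hsd11b1 -0.93, -0.63 and 0.67.

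Markers of immune cells, in which the family is best known, were listed as well. Of 17 macrophage markers, 5 had enough counts for the edgeR test, which called 0 of them over the 3 days. Without day 0 it called 3 lower, Csf1r and Cd14 among them, against 11.6% of all genes. The direction was mixed: on day 9, 3 of 5 with enough counts were at least 2-fold lower, against 8.74% of all genes. Another 1 of the 5 was at least 2-fold higher that day (log2 fold change 1.08). Adgre1, C1qa, C1qb and C1qc had 0 counts in all 6 libraries, and Ptprc had at most 1 and Itgam at most 3 counts in any. The summed normalized counts of the 17 markers were 433.3 and 382.8 at day 0, 894.7 and 386.1 on day 3 and 791.5 and 434.1 on day 9 (untreated, then FGF8). Cd14 had 128, 100 and 106 counts in untreated and 99, 63 and 32 in FGF8-treated cells. The 5 lymphocyte markers had at most 6 counts in any library. The part of the shift in macrophage markers in the p200 levels was not tested. Among 7 endothelial markers, Cdh5 and Pecam1 had at most 17 counts, while Tek (222, 51 and 226 counts in untreated, 33, 14 and 31 after FGF8) was called lower in edgeR and Kdr had 877 and 6 counts at day 0. Without day 0, edgeR called both Tek and Kdr lower, of 3 endothelial markers tested, against 11.6% of all genes.

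Over the 6 libraries, the genes whose level followed the mean of the 10 members most closely were Evc, Pcdhgc3, Prickle2, Calhm2 and Otulinl (Pearson's r of 0.993, 0.993, 0.992, 0.987 and 0.987 on log2 values, among 11372 genes that averaged 100 or more normalized counts). Evc, for example, went from 2808 to 1530 normalized counts with FGF8 at day 0 and from 1187 to 513.8 on day 9. Without Ifi202b, the 5 closest were Rnase4, Isyna1, Cbx6, S1pr1 and Il17rd (0.990 to 0.980). By Spearman's correlation with all 10 members, Sulf1, Fhl2, Pard3b, Itm2c and Dsel each had 1.0, so they ranked the 6 libraries as the family did. Ties were kept in the order in which the genes are listed. These 5 are therefore no closer to the family than any other gene tied at 1.0, and the number of such genes is not given. The genes named thus change with the measure and with Ifi202b. No correlation was computed without the day 0 pair, which would leave 4 libraries. With 6 libraries of 3 days and 2 treatments, these correlations only describe a shared course.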

How the data were processed

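The 6 libraries were grouped by treatment and day from the sample labels. The authors trimmed 150-base paired reads with Trim Galore, used HISAT2 for alignment to mm39 (GRCm39) and featureCounts for counting, and deposited raw counts, 1 per gene symbol and library. Tool versions, the annotation, the strand setting and the treatment of multiply matching reads are not given in the sources used here. All deposited columns were used.

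Counts were divided by the size factors of DESeq2 1.42.0 over the 6 libraries. Fold changes used a pseudocount of 1, and counting intervals at the 95% level and the floor of 3 counts cover counting error only, since PCR reads are not independent molecules. They are narrow for abundant genes and wide for genes under about 100 counts. The effects shared by days or treatments were tested with edgeR 4.0.16 (TMM, filterByExpr, quasi-likelihood, Benjamini-Hochberg over all genes tested, adjusted p under 0.05); the samples are days and treatments rather than replicates, and standard errors came from the F statistic. Both steps were tested on simulated data. Sequence windows, coordinates and exon lengths came from GRCm39 with GENCODE M39, in which 23897 of the 26264 symbols were found.

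The members, the 14 gene lists and the tests were chosen with earlier results of these data known. The text names all members, the other p200 symbols, from each list at most 5 genes with the largest absolute change on day 9 averaging 100 or more normalized counts, the 5 genes most like the family and genes within 500 kb with counts, of which some results are not reported here. Genes outside this rule (Gbp2b, Ptchd1, Pycard, Il1b, Ifnb1, Ifit2, Cd14, Csf1r, Banf1, Pecam1, Cdh5 and the markers at or near 0) were named after their values were seen. Alternatives were TMM factors, total counts, size factors within a pair, other pseudocounts, filters and fold limits, DESeq2's Wald test, no block, leaving out each day, other windows and Spearman's correlation. Scripts ran in Python 3.11.15 (pandas 2.3.3, scipy 1.17.1) and R 4.3.3.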

Additional observations from a re-analysis of the deposited data

Results flagged for a closer look

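Ifi213 was picked out because its course from day 3 to day 9 had opposite directions under the 2 treatments. The log2 fold change was 0.74 in untreated cells and -0.64 in FGF8-treated cells, from 201 to 601 counts and from 84 to 46 counts. Each direction rests on 1 library per day, and the difference between the treatments was not tested.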

How the results depend on the processing

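All fold changes of the summed count, and the medians, stayed below 0 under each alternative tried, and 128 of 135 alternative values of single genes on single days moved by less than their counting interval, with 0 reversals. The summed log2 fold change was -1.16 at day 0 with total counts, -1.26 with size factors within the pair, -1.17 without Ifi204 and -1.29 without Ifi202b. On day 3 it was -1.42 with TMM factors, -1.49 with total counts, -1.42 within the pair and -1.43 without Ifi204, and on day 9 -2.19 within the pair. The day 3 median was -1.42 with total counts, which also gave 298 genes at least 2-fold higher, in place of 490. Under a 4-fold rule 1 member was lower at day 0 and 2 on day 3, beside 560 and 268 of all genes lower, 250 and 34 higher, and 354 lower and 9 higher on day 9. With a 1.5-fold rule 2256, 2549 and 1881 genes were lower on days 0, 3 and 9, and 2141, 2017 and 778 higher. With no filter these were 2861, 3199 and 2585 lower and 2331, 1257 and 623 higher, and with a mean of at least 100 on day 9, 726 and 79.

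The shared FGF8 effect was the least stable result. Leaving out each day gave 0 to 2230 genes and 0 to 7 members called. DESeq2 size factors gave 94 genes and 2 members, no filter 419 genes and 7 members, DESeq2's Wald test 1692 genes and 7 members, and no block 0 genes and 0 members. With no block, day 3 against day 0 gave 4436 genes and 1 member, day 9 against day 0 1 member, and day 9 against day 3 3 genes. Day 9 against day 3 gave 268 genes and 5 members with no filter, and 1319 genes and 6 members with the Wald test. The fitted FGF8 effect of Ifi202b became 0.026 with the Wald test and the day 9 against day 3 change of Aim2 0.021 with no block; both were not called. The median share of windows found elsewhere was 6.67% at 100 and 23.5% at 50 bases. The alternatives without Ifi202b and the calls of the gene lists without day 0 were chosen after seeing the data. The cause of these differences was not tested. No paired analysis was possible by replicate number because each group holds 1 library; the test itself pairs the treatments by day, and its calls rest on that block.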
